A study of Mus musculus with 16 samples.

Results

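Mitochondrial complex I is built from subunits encoded in the nucleus and in mitochondrial DNA, and its nuclear genes are the subject here. All gene symbols of the deposited tables that start with Ndufa, Ndufb, Ndufc, Ndufs, Ndufv, Ndufab or Ndufaf and a number were taken, without pseudogene rows. This gave 45 genes of 43472, of which 38 are named as subunits and 7, the Ndufaf genes, as assembly factors. They lie on 16 chromosomes, with 2 of them (Ndufa1 and Ndufb11) on X. All 45 passed the filter on low counts in every comparison below.

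The study asked what brain gene expression shares between mouse models of Congenital Myasthenic Syndrome-22 and of Prader-Willi syndrome. It profiled 4 Prepl knockout brains with 4 wild types (WT) as their controls, and 4 PWS-IC deleted brains with another 4 WT as theirs. Prepl encodes a serine hydrolase of the prolyl oligopeptidase family, and PWS-IC is the imprinting centre that keeps genes of the Prader-Willi region active on the paternal chromosome. The labels give tissue and genotype only, with no strain, age, brain region or handling batch, and nothing in them states that the 4 replicates of a group came from different animals. Prepl WT, PWS-IC WT and PWS-IC deleted libraries each held both sexes by the calls given below, so each of these groups came from more than a single animal. The p-values reflect variation among these libraries, part of which may be technical. Brain tissue holds many cell types, and fewer cells of a type cannot be told apart from less RNA per cell. Throughout, WT of the Prepl set and WT of the PWS-IC set are kept apart as 2 groups.

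Complex I takes electrons from NADH, passes them along iron-sulfur clusters in its matrix arm to ubiquinone, and pumps protons through its membrane arm. It is the entry point of most electrons into the respiratory chain, and neurons depend heavily on the ATP that this chain supplies. A small set of core subunits carries out the catalysis, the accessory subunits surround and stabilise that core, and assembly factors help to build the complex without remaining in it.

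Each library was a 3′ poly(A) count library, in which a read marks the end of a transcript and a count does not grow with transcript length. Reads in genes numbered 3477624 to 5852716 per library, of which 19085 to 33572 fell in the complex I genes. Prepl was at 1.17 to 2.18 CPM (a gene's count over the library's total in genes, times 1e6) in Prepl knockout libraries, against 33.6 to 36.5 CPM in their WT. Ndn, a paternally expressed gene of the Prader-Willi region, was at 2.17 to 6.56 CPM in PWS-IC deleted libraries, against 543 to 566 CPM in their WT, so the labels held in all 16. The 5 neuron markers summed to between 2416 and 2932 CPM in all libraries, and the 4 muscle markers to at most 19.2 CPM. By Xist and Y-linked genes, the Prepl knockouts were 4 males, their WT were 3 females and 1 male, and PWS-IC deleted and PWS-IC WT libraries each held 2 males and 2 females. Reads aligned outside genes made up 17.7% ± 1.24 in Prepl knockout and 17% ± 1.76 in their WT libraries, and 19.1% ± 1.14 in PWS-IC deleted and 12.3% ± 1.03 in their WT libraries (SD, n = 4 each).

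The genes were ordered by the place of their products in the complex. Averaged over 16 libraries, the 10 genes of the NADH-oxidising end ran between 83.2 CPM for Ndufs1, a core subunit that carries iron-sulfur clusters, and 185 CPM for Ndufv3, an accessory subunit, with a median of 141 CPM. The 6 genes of the ubiquinone-reducing part had a median of 67.9 CPM, with Ndufs3 lowest at 26.2 CPM and the accessory subunit Ndufa5 highest at 219 CPM. In the proximal membrane arm, 9 genes ran between 26.6 CPM for Ndufs5 and 373 CPM for Ndufc2, which had the most reads of all 45. In the distal membrane arm, 10 genes ran between 68.3 CPM for Ndufb4 and 238 CPM for Ndufb5. Ndufab1, the mitochondrial acyl carrier protein, was at 47.6 CPM.

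A pair of names in the family does not mark ordinary subunits of complex I. Ndufa4 was named as one but its product is now placed in cytochrome c oxidase, and it was at 267 CPM. Its paralog Ndufa4l2, which is known as a hypoxia-induced gene, was the lowest of the 45 at 2.16 CPM, with 2 to 22 reads per library. The 7 assembly factors had a median of 23.9 CPM, with Ndufaf1 lowest at 7.11 CPM and Ndufaf4 highest at 62.6 CPM. Each of the 7 lay below the median of the NADH end, the ubiquinone part and both membrane-arm parts.

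**Figure D1:**
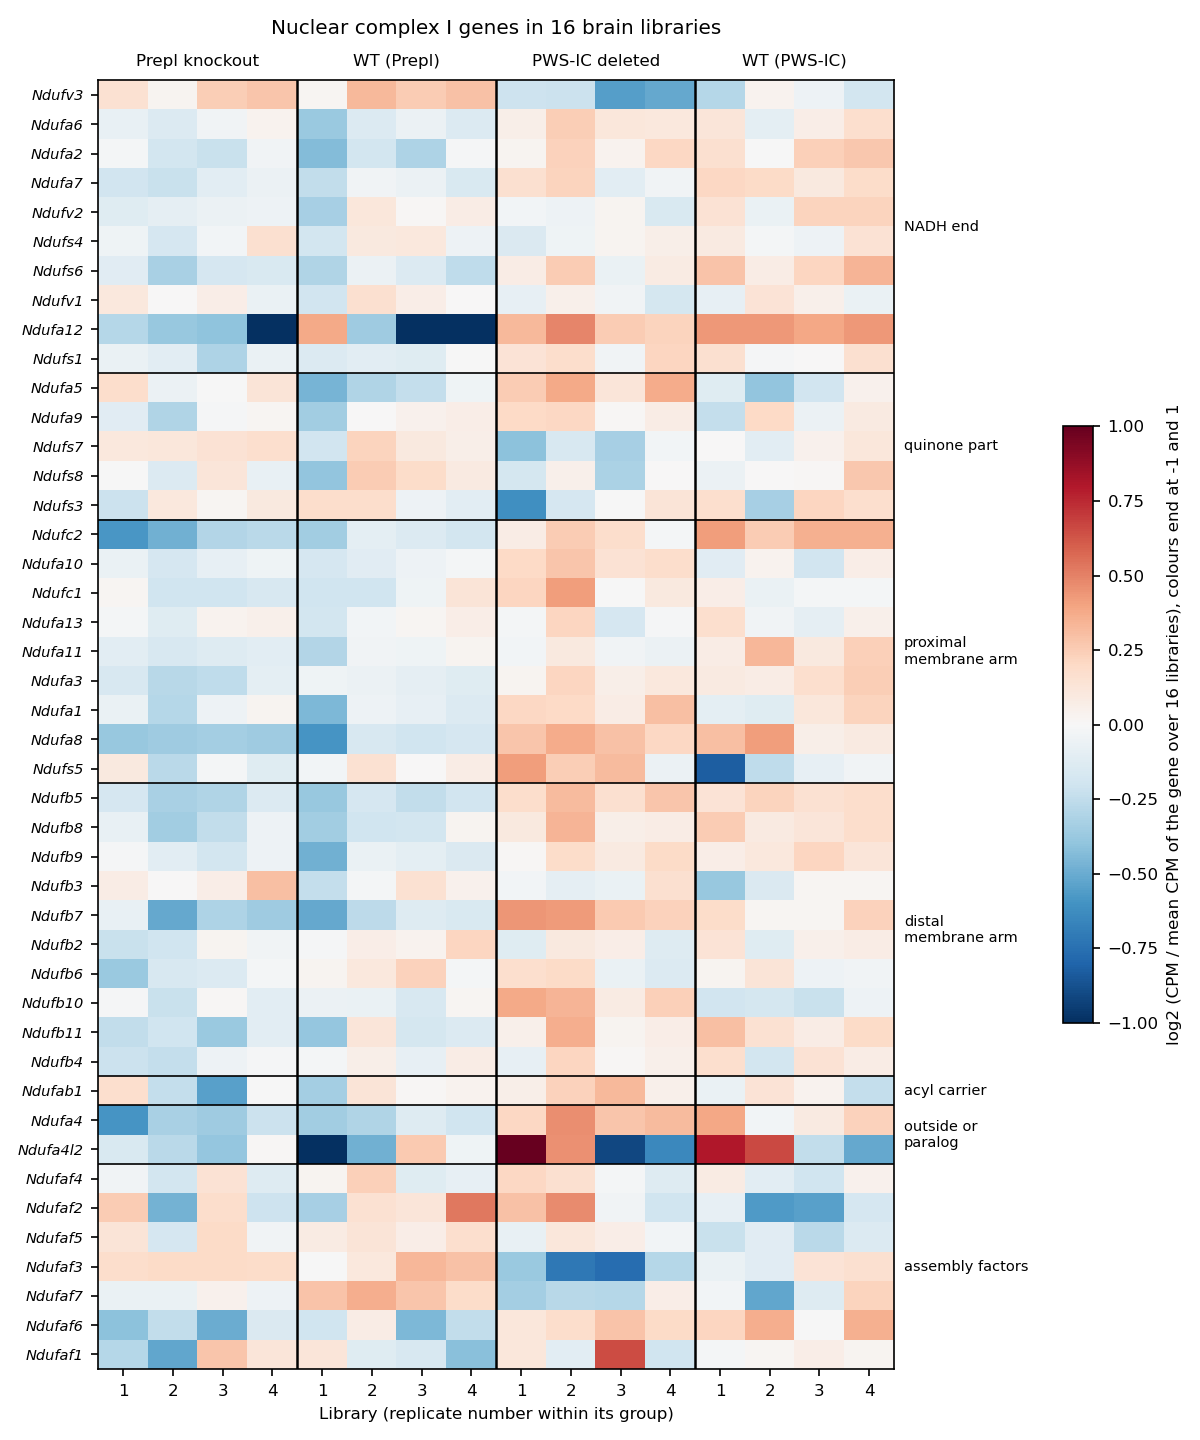
CPM of 44 of the 45 genes in each of the 16 libraries, as log2 of the ratio to the gene's mean over all libraries, with genes in rows by role and libraries in columns by group. Most subunit rows are redder in the PWS-IC deleted and PWS-IC WT columns than in the Prepl knockout and Prepl WT columns, and Ndufa12 ranges between 28.8 and 122 CPM within the Prepl set.

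Some rows are uncertain because of other genes. The ends of Ndufs5, Ndufs3, Ndufb2, Ndufb3, Ndufb6 and Ndufb11 closely match the transcript of another gene. For Ndufb2 and Ndufb6 the matching transcripts, of Braf and Smim27, belong to genes that overlap them on the opposite strand. In all, 18 of the 45 genes overlap an annotated gene on the opposite strand, among them Ndufb5 (with Mrpl47) and Ndufs6 (with Mrpl36).

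Replicates differed by modest amounts. The coefficient of variation over the 4 libraries of a group had a median over the 45 genes of 7.74% in Prepl knockouts, 10.8% in their WT, 8.38% in PWS-IC deleted and 7.98% in PWS-IC WT. Replicate 1 of the Prepl WT was the lowest of its group for 33 of the 45 genes, and replicate 2 of the Prepl knockouts for 26. Replicate 2 of the PWS-IC deleted libraries was the highest of its group for 26. Without replicate 1 of the Prepl WT, the counts of called genes given below were again 0 in Prepl knockouts, and 17 in place of 18 between the WT groups.

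Start-site sequence is shown for 3 genes of the comparisons below. They are Ndufa5 and Ndufb10, the pair that changed in PWS-IC deleted brains, and Ndufa8, among the 17 genes higher in PWS-IC WT than in Prepl WT. Each run covers 250 bases before to 30 after a RefSeq start on GRCm38.p6, on the gene's own strand. For Ndufa5 the most upstream RefSeq start was used. The positions are chr6:24527661-24527940 for Ndufa5, chr17:24724394-24724673 for Ndufb10 and chr2:36049309-36049588 for Ndufa8, all on the minus strand. Capitals mark GCGCA and GCGC with any 1 base between them, read on either strand, a pattern bound by NRF1, a transcription factor known for regulating respiratory chain genes.
Ndufa5: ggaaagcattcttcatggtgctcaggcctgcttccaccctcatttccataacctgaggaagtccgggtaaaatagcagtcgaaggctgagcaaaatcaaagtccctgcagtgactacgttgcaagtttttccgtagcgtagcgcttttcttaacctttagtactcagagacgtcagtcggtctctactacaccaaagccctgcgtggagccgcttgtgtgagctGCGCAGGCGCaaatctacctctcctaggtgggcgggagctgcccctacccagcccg
Ndufb10: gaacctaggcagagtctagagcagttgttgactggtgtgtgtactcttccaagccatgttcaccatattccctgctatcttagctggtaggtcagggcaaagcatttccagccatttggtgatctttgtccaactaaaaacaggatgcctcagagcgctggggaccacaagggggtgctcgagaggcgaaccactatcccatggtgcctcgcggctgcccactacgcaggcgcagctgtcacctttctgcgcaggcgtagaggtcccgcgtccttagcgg
Ndufa8: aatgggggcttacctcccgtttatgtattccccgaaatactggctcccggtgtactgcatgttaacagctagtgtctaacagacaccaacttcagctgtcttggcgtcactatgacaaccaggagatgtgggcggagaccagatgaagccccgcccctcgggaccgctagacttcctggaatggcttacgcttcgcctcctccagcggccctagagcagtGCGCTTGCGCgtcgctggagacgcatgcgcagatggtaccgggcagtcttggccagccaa

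The Ndufa5 run holds the pattern on its own strand, as GCGCAGGCGC, and the Ndufa8 run holds it on the other strand, as GCGCTTGCGC. No match lay in the Ndufb10 run. None lay near the starts of Ndufc2 and Ndufb5 either, which had smaller p than Ndufa8 between the WT groups. RefSeq windows of 300 bases (250 before to 50 after the start) were at hand for 39 of the 45 genes, and 9 of these (23.1%) held the pattern on either strand, against 1402 of 27025 genes (5.19%). A gene counted as holding a pattern when any of its windows did. The letters AAGATGG of the YY1 pattern were in 7 of the 39 (17.9%) and in 7.28% of all genes. The letters CCGGAAG of the ETS pattern were in 5 (12.8%) and in 9.93% of all genes. One or more of the 3 patterns lay in 20 of the 39 genes (51.3%), against 20% of all genes, with both strands searched and overlaps between patterns allowed. These matches describe letters near start sites and are not binding sites or causes of a change.

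In Prepl knockout brains none of the 45 genes passed the test against their WT. The test was edgeR's quasi-likelihood F-test with Benjamini-Hochberg adjustment over all genes tested and a threshold of 0.05, and in this comparison it called 0.262% of the 13722 genes. At an unadjusted p under 0.05, 4 of the 45 (8.89%) were found, against 9.43% of all genes. DESeq2 called 1 of the 45 and limma voom none. The median log2 fold change of the 45 was -0.01, against 0.00 for all genes, and the values ran between -0.28 and 0.35. A gene with no overlap between the groups was seen once among the 45 (2.22%), against 5.69% of all genes.

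The gene nearest to the threshold was Ndufa5, an accessory subunit of the matrix arm near the ubiquinone site (chr6:24518666-24528013, GRCm38). It had 248, 210, 219 and 239 CPM in Prepl knockouts, against 159, 178, 186 and 213 CPM in their WT. The groups met at a single pair, the lowest knockout lying just under the highest WT. The log2 fold change was 0.35 ± 0.0802 (SE, n = 4 each), and the edgeR adjusted p of 0.0652 missed the threshold. Ndufa5 passed it with DESeq2, without the filter on low counts, with the share of reads aligned outside genes as an added term, or without replicate 4 of the WT. With a sex term it had a log2 fold change of 0.14 and an adjusted p of 0.999; the knockouts were all male, and the single male WT was the one with 213 CPM.

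The assembly factor Ndufaf7, a methyltransferase, was the gene whose groups did not overlap. It had 17.1, 17.1, 18.5 and 17.3 CPM in Prepl knockouts, against 21.9, 23.1, 21.7 and 20.4 CPM in their WT, with a log2 fold change of -0.28 ± 0.127 (SE) and an edgeR adjusted p of 0.505. Ndufb6, of the distal membrane arm, averaged 97.7 ± 9.64 CPM in Prepl knockouts and 117 ± 9.37 CPM in their WT (SD, n = 4 each; adjusted p 0.374). Ndufc2, of the proximal membrane arm, averaged 283 ± 28.7 CPM in Prepl knockouts and 328 ± 24.4 CPM in their WT (adjusted p 0.476). The accessory subunits Ndufa6 and Ndufb3 had log2 fold changes of 0.15 ± 0.0733 and 0.16 ± 0.0809 (SE), with adjusted p of 0.531 and 0.561.

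The 7 core subunits lay close to 0 in this comparison. Among them Ndufv1 binds NADH, and Ndufs7 and Ndufs8 carry iron-sulfur clusters in the ubiquinone part. Their log2 fold changes ran between -0.04 for Ndufs8 and 0.11 for Ndufs7, with a median of -0.01. Summed over all 7, Prepl knockout libraries held 589 to 602 CPM, within the 518 to 661 CPM of their WT. Medians of the other roles were 0.02 for the NADH end, 0.04 for the ubiquinone part, -0.02 for the proximal and 0.00 for the distal membrane arm, and -0.04 for the assembly factors.

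**Figure D2:**
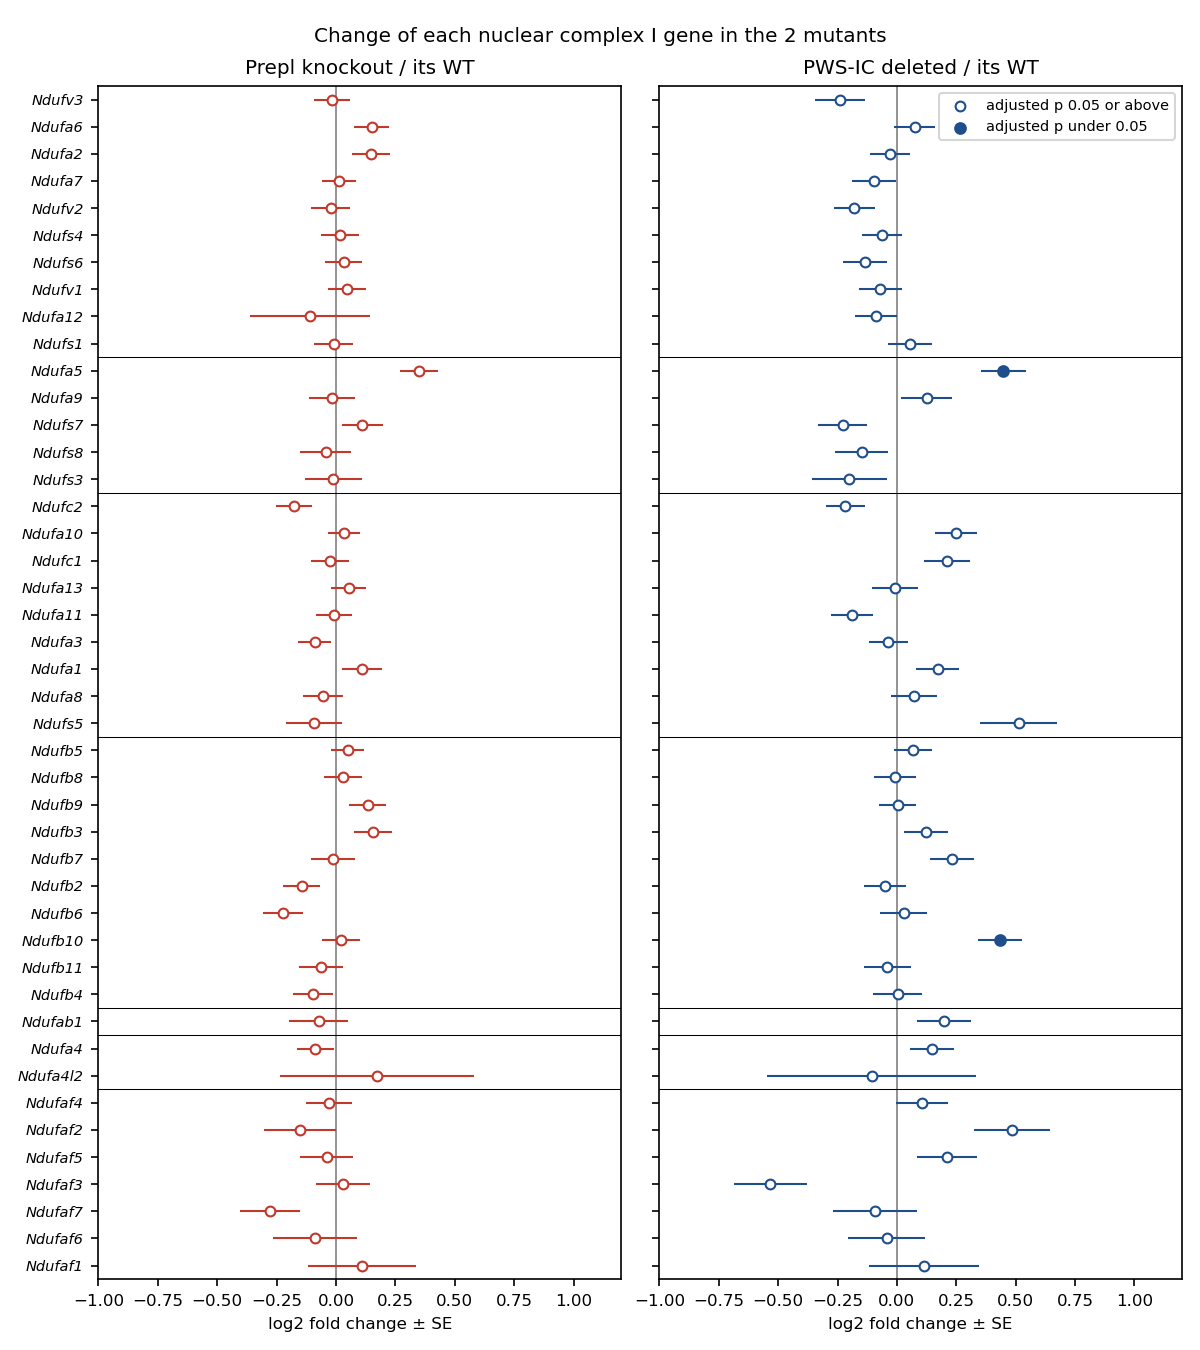
Log2 fold change of 44 of the 45 genes, each with its SE, for Prepl knockout over its WT on the left and PWS-IC deleted over its WT on the right (n = 4 each), with genes by role as in the map of levels. Filled points passed the edgeR threshold: none on the left, and Ndufa5 and Ndufb10 on the right.

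In PWS-IC deleted brains 2 of the 45 genes rose and none fell against their WT in the edgeR test. They were Ndufa5 and Ndufb10, and 2 of 45 is 4.44%, close to the 4.52% called among all 13636 genes tested (2.96% higher and 1.55% lower). DESeq2 called 3 of the 45, with Ndufaf3 as a lower one, against 5.38% of all genes, and limma voom called the same 2 as edgeR. At an unadjusted p under 0.05 the count was 13 (28.9%), 7 higher and 6 lower, against 18.2% of all genes (9.97% higher and 8.24% lower). The groups did not overlap for 6 genes (13.3%), against 11.8% of all. The median log2 fold change was -0.01 for the 45 and -0.01 for all genes.

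Ndufa5 had 261, 285, 238 and 283 CPM in PWS-IC deleted libraries, against 202, 167, 192 and 226 CPM in their WT. Every deleted library lay above every WT library. The log2 fold change was 0.45 ± 0.0951 (SE, n = 4 each) with an edgeR adjusted p of 0.00897, the 210th smallest p of all genes tested. No other annotated gene overlaps Ndufa5, and its last 300 bases had no copy elsewhere in the transcripts at 95% identity.

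Ndufb10, an accessory subunit of the distal membrane arm (chr17:24722060-24724478, GRCm38), had 117, 114, 95.2 and 106 CPM in PWS-IC deleted libraries, against 78.6, 79.7, 77 and 87 CPM in their WT. These groups were also fully separate. The log2 fold change was 0.43 ± 0.0943 (SE, n = 4 each), with an edgeR adjusted p of 0.0105. In Prepl knockouts the same gene averaged 85.1 ± 6.14 CPM, against 86 ± 4.23 CPM in their WT (SD, n = 4 each). Ndufa5 and Ndufb10 stayed past the threshold when any 1 of the 8 libraries was left out, with adjusted p of at most 0.0349 and 0.0467. With the outside-gene read share as an added term, which did not overlap between these 2 groups, neither passed (0.81 ± 0.353 for Ndufa5 and 0.73 ± 0.355 for Ndufb10, log2 with SE). In male libraries alone (2 against 2), Ndufa5 passed (adjusted p 0.0442) and Ndufb10 did not (adjusted p 0.0531).

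**Figure D3:**
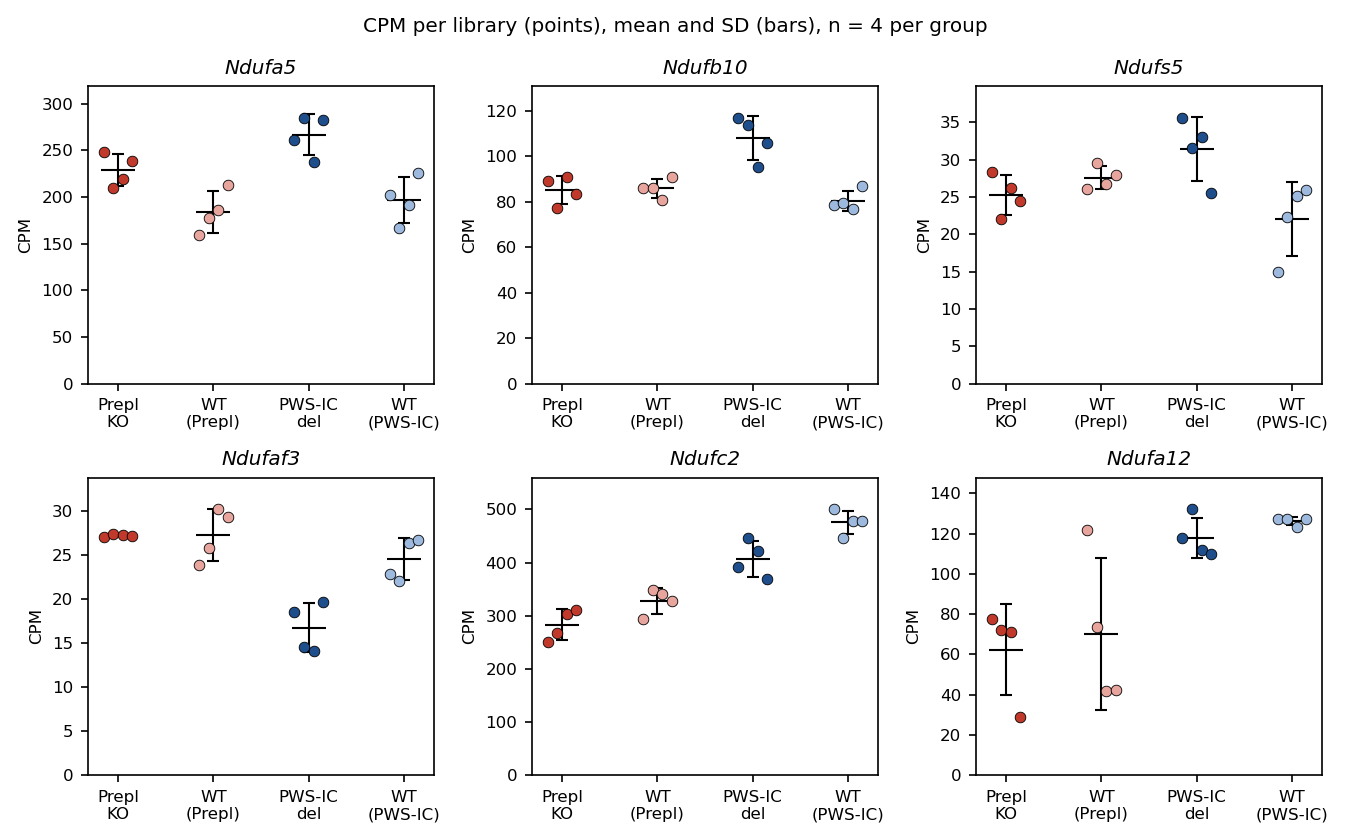
CPM in each library for 6 genes, with the mean and SD of each group (n = 4) as bars. Ndufa5 has a higher mean in both mutants than in their WT, but in the Prepl set its groups overlap and it was not called. Ndufb10 is high in PWS-IC deleted libraries (95.2 to 117 CPM), and Ndufaf3 is low there (14.1 to 19.7 CPM). Ndufc2 and Ndufa12 differ mainly between the 2 sets of mice.

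Several further genes lay just outside the threshold in PWS-IC deleted brains. Ndufaf3, an assembly factor that works with Ndufaf4 on the ubiquinone part, had 18.5, 14.6, 14.1 and 19.7 CPM in deleted libraries, against 22.9, 22.1, 26.4 and 26.7 CPM in their WT. Its groups did not overlap, and the log2 fold change of -0.53 ± 0.152 (SE) had an edgeR adjusted p of 0.0504. In the annotation Ndufaf3 (chr9:108565537-108567434) overlaps Impdh2 on the opposite strand, and without a known strand setting of the counting, their reads cannot be told apart with certainty.

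Ndufs5, of the proximal membrane arm, had 35.6, 31.5, 33.1 and 25.5 CPM in PWS-IC deleted libraries, against 15, 22.3, 25.1 and 25.9 CPM in their WT. The deleted libraries were higher apart from replicate 4, which fell among the WT values (log2 fold change 0.51 ± 0.163, SE; adjusted p 0.0797). Its counts are uncertain, since 186 of its last 300 bases are identical to BC002163, a separate row with 3019 reads over all libraries. Ndufaf2, an assembly factor and paralog of the subunit Ndufa12, had 41.9, 47.4, 33.4 and 29.8 CPM in deleted libraries, against 32.3, 23.1, 23.5 and 30.5 CPM in their WT. Its groups overlapped, with a log2 fold change of 0.48 ± 0.16 (SE) and an adjusted p of 0.0927. Ndufaf3, Ndufs5 and Ndufaf2 all passed the threshold without replicate 4 of the deleted libraries, where 5 of the 45 genes were called, against 3.35% of all genes.

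Ndufa10, of the proximal membrane arm, had 186, 196, 179 and 183 CPM in PWS-IC deleted libraries, against 150, 166, 142 and 170 CPM in their WT. The groups were separate, with a log2 fold change of 0.25 ± 0.0871 (SE) and an adjusted p of 0.115. Ndufa10, Ndufaf3, Ndufs5 and Ndufaf2 all passed with a sex term, where 6 of the 45 genes and 8.21% of all genes were called. The most abundant gene, Ndufc2, averaged 407 ± 33.6 CPM in PWS-IC deleted and 475 ± 22.3 CPM in WT libraries (SD, n = 4 each; adjusted p 0.148). The abundant genes Ndufa4 and Ndufb5 had log2 fold changes of 0.15 ± 0.0942 and 0.07 ± 0.0793 (SE), with adjusted p of 0.439 and 0.716.

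Of the 7 core subunits none passed the test in PWS-IC deleted brains, and 6 had log2 fold changes below 0 (47.6% of all genes tested lay above 0). The median was -0.18, with values between -0.23 for Ndufs7 and 0.05 for Ndufs1. Ndufs7, which carries the last iron-sulfur cluster before ubiquinone, averaged 58 ± 7.02 CPM in PWS-IC deleted and 68.6 ± 4.28 CPM in WT libraries (SD, n = 4 each; adjusted p 0.239). Summed over the 7, the deleted libraries held 560 to 599 CPM and the WT 602 to 668 CPM. Among the 10 genes of the NADH end 8 lay below 0 (median -0.08), and among the 10 of the distal membrane arm 7 lay above 0 (median 0.02), with Ndufb10 the gene that passed.

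Other lists moved in the same libraries. Of 5 blood markers 4 were lower in PWS-IC deleted brains (median log2 fold change -0.97, summed 1203 to 1629 CPM in deleted and 1796 to 3970 CPM in WT libraries). All 5 meningeal markers were lower (median -0.74, summed 291 to 314 CPM in deleted and 377 to 630 CPM in WT libraries), while none of 5 neuron markers was called (median -0.06). Of 3 tested choroid plexus markers 2 were lower, and the list summed to 532, 502, 345 and 1629 CPM in deleted libraries, against 1319 to 2091 CPM in WT libraries. Replicate 4 of the deleted libraries, without which 5 of the 45 genes were called, lay within the WT range for this list. The part of these, and of the outside-gene read share, in the complex I values was not tested.

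The 2 mutant effects were then set side by side, which is possible without shared controls. Both effects were above 0 for 9 of the 45 genes and below 0 for 12, a same-direction share of 46.7%, against 55.8% of the 13237 genes tested in both. Across the 45 genes Pearson's r between the effects was 0.08, and across all genes it was 0.13, both as descriptions over genes that are not independent. Among genes with the same direction in both, Ndufa5 had the largest effects. They were 0.35 ± 0.0802 in Prepl knockouts and 0.45 ± 0.0951 in PWS-IC deleted brains (log2, SE). The second was called, and the first was 0.14 with a sex term. Ndufc2 was below 0 in both, at -0.18 ± 0.0762 in Prepl knockouts and -0.22 ± 0.0819 in PWS-IC deleted brains, and was called in neither.

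The difference between the effects, tested as a contrast over all 16 libraries, was called for none of the 45 genes, against 0.778% of 14392 genes, and 6 had an unadjusted p under 0.05 (13.3%, against 11.7% of all). DESeq2 and limma voom called none of the 45 either. For Ndufa5 the PWS-IC effect minus the Prepl effect was 0.10 ± 0.131 (log2, SE; adjusted p 0.834). For Ndufb10 it was 0.42 ± 0.123, with an edgeR adjusted p of 0.127. With a sex term the difference was called for Ndufb10 and Ndufaf2, and for 1.63% of all genes. Others with an unadjusted p under 0.05 were Ndufaf3 (-0.56 ± 0.183), Ndufs5 (0.61 ± 0.203), Ndufaf2 (0.64 ± 0.243) and Ndufs7 (-0.34 ± 0.133), with adjusted p of 0.183 to 0.294.

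More of the complex I genes were called between the 2 sets of mice than in either mutant. Among the WT alone, 17 of the 45 genes (37.8%) were higher in the PWS-IC set than in the Prepl set, against 12.3% of all genes, and 1 (2.22%) was lower, against 12.1%. Altogether 40% of the 45 were called, against 24.4% of the 14392 genes tested. The median log2 fold change was 0.14 for the 45 and 0.00 for all genes, and 35 of the 45 lay above 0, against 49.9% of all. The groups did not overlap for 15 of the 45 (33.3%, against 24.3% of all), 13 of them higher (9.7% of all).

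Apart from Ndufaf6 and Ndufa4, the 17 higher genes were accessory subunits. Of 10 genes of the NADH end 5 were higher, of 9 of the proximal membrane arm 5, of 10 of the distal membrane arm 5, and of 6 of the ubiquinone part none. Of the 7 core subunits none passed the test, though all 7 lay above 0 (median 0.06). Of the 7 assembly factors 1 was higher, Ndufaf6, at 15.3 ± 1.75 CPM in PWS-IC WT and 11.3 ± 1.71 CPM in Prepl WT (SD, n = 4 each; adjusted p 0.025), and the median of the 7 was -0.11.

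Ndufc2 had 500, 446, 478 and 478 CPM in PWS-IC WT, against 293, 349, 340 and 328 CPM in Prepl WT. The groups were far apart, with a log2 fold change of 0.58 ± 0.0826 (SE). Ndufa8, an accessory subunit facing the intermembrane space, had 164, 177, 138 and 141 CPM in PWS-IC WT, against 88.2, 119, 116 and 118 CPM in Prepl WT (0.54 ± 0.0948; adjusted p 9.06e-05). Ndufb5 had 261, 278, 264 and 269 CPM in PWS-IC WT, against 183, 211, 200 and 208 CPM in Prepl WT (0.47 ± 0.0744). For both genes the lowest PWS-IC WT library lay above the highest Prepl WT library.

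Ndufs6, a zinc-binding accessory subunit, averaged 132 ± 10.4 CPM in PWS-IC WT and 98.8 ± 7.49 CPM in Prepl WT. Ndufa4 averaged 302 ± 38 CPM in PWS-IC WT and 225 ± 15.8 CPM in Prepl WT, and Ndufa2, an accessory subunit of the NADH end, 199 ± 16.6 CPM in PWS-IC WT and 151 ± 19.1 CPM in Prepl WT (SD, n = 4 each). These 3 had edgeR adjusted p of at most 0.000349. The lower gene was Ndufv3, at 152, 189, 178 and 163 CPM in PWS-IC WT, against 187, 231, 220 and 227 CPM in Prepl WT. Its groups overlapped by a single pair of libraries, and the log2 fold change was -0.30 ± 0.0954 (SE; adjusted p 0.0221).

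The widest difference was that of Ndufa12, an accessory subunit at the NADH end (chr10:94198720-94221443, GRCm38). It had 127, 127, 123 and 127 CPM in PWS-IC WT, against 122, 73.5, 41.7 and 42.3 CPM in Prepl WT, and 118, 132, 112 and 110 CPM in PWS-IC deleted, against 77.3, 72.2, 71.1 and 28.8 CPM in Prepl knockouts. All 8 libraries of the PWS-IC set lay between 110 and 132 CPM, while the 8 of the Prepl set spanned 28.8 to 122 CPM, with the highest of them a WT. The log2 fold change between the WT groups was 0.91 ± 0.223 (SE, n = 4 each), with an edgeR adjusted p of 0.00302. No annotated gene overlaps Ndufa12, and no other of the 45 genes at 10 CPM or more had a coefficient of variation as large in either Prepl group.

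**Figure D4:**
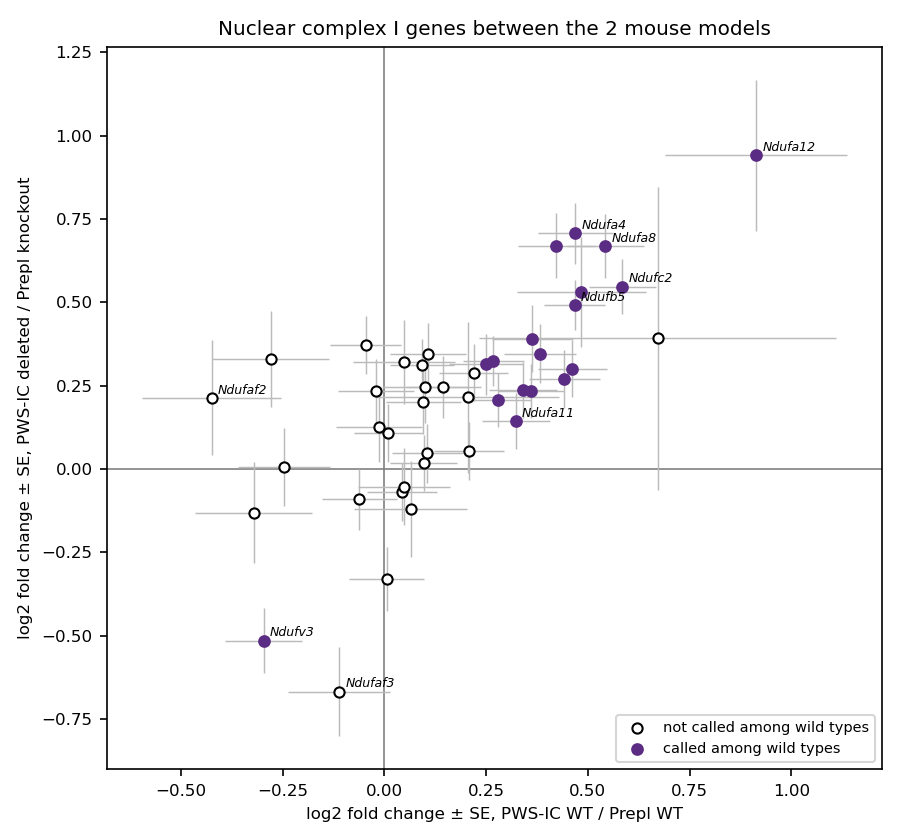
Log2 fold change with SE of 44 of the 45 genes between the 2 sets of mice, among WT on the horizontal axis (PWS-IC WT over Prepl WT) and among mutants on the vertical axis (PWS-IC deleted over Prepl knockout), n = 4 libraries in each of the 4 groups. Filled points passed the test among WT: 17 lie right of 0 and all 17 also lie above 0, while Ndufv3 is low in both.

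The mutants, another 8 libraries within the same fit of 16, were compared in the same way after the WT result had been seen. Here 20 of the 45 genes (44.4%) were higher in PWS-IC deleted than in Prepl knockout brains, against 14.5% of all genes, and 3 (6.67%) were lower, against 13.6%. Altogether 51.1% of the 45 were called, against 28% of all genes, and the median was 0.24 for the 45 and -0.01 for all genes. The groups did not overlap for 23 of the 45 (51.1%), against 27.2% of all. Of the 17 genes higher among WT 15 were also higher among mutants, where they are 15 of 20. The same overlap over all genes was not counted, so these 15 have no share to be read against. The 2 left out were Ndufa6 and Ndufa11, and the 5 that were called higher among mutants but not among WT were Ndufa5, Ndufa10, Ndufb10, Ndufc1 and Ndufs1. The 3 lower genes were Ndufv3, Ndufaf3 and Ndufs7.

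Ndufa4 averaged 333 ± 25.2 CPM in PWS-IC deleted and 207 ± 21.8 CPM in Prepl knockout libraries, and Ndufa8 averaged 162 ± 7.75 CPM in PWS-IC deleted and 104 ± 1.38 CPM in Prepl knockout libraries (SD, n = 4 each). Ndufb7, of the distal membrane arm, averaged 154 ± 12 CPM in PWS-IC deleted and 98.2 ± 12.6 CPM in Prepl knockout libraries (SD, n = 4 each). These 3 had an edgeR adjusted p of at most 5.6e-06, and their groups did not overlap. Summed over the 45 genes, libraries held 0.574% ± 0.0301 of their reads in PWS-IC deleted and 0.568% ± 0.0169 in PWS-IC WT, and 0.488% ± 0.0196 in Prepl knockout and 0.496% ± 0.0329 in Prepl WT (SD, n = 4 each).

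The labels do not say how the 2 sets of mice differ, so a difference between them cannot be told apart from strain, age or handling. With the outside-gene read share as an added term, 2 of the 45 genes (Ndufa12 and Ndufv3) were called among WT, against 2.63% of all genes. That share did not overlap between the WT groups (11.4% to 13.7% in PWS-IC WT and 16% to 19.6% in Prepl WT). The fit therefore cannot well separate it from the difference between the sets. Among mutants the share was 19.1% in PWS-IC deleted and 17.7% in Prepl knockout libraries. All 5 blood markers were higher in PWS-IC WT (median log2 fold change 1.71), summing to 1796 to 3970 CPM, against 660 to 1145 CPM in Prepl WT. Of 5 neuron markers 2 were lower there, and of 5 astrocyte markers 2. Their part in the complex I difference was not tested.

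The 7 mitochondrially encoded subunits of the same complex form the proton-pumping core of the membrane arm. In PWS-IC deleted brains 5 of the 7 fell, against 1.55% of all genes tested, with a median of -0.48. The largest falls were mt-Nd4l at -1.44 ± 0.123 and mt-Nd4 at -0.67 ± 0.0792 (log2, SE). The mt-Nd4l row was low, at 42 to 63.6 CPM in PWS-IC deleted libraries, where mt-Nd4 had 5510 to 6080 CPM. In the other direction, mt-Nd6 had 0.49 ± 0.167 (log2, SE) and was not called (edgeR adjusted p 0.0999). With the outside-gene read share as an added term, 4 of the 13636 genes tested were called in PWS-IC deleted brains. In Prepl knockouts 2 of the 7 rose, against 0.189% of all genes, mt-Nd1 at 0.47 ± 0.0761 and mt-Nd3 at 0.38 ± 0.0767, with a median of 0.28. The Prepl knockouts were all male and their WT mostly female, so sex is not separated from the knockout there. The difference between the mutant effects was called for 6 of the 7, against none of the 45 nuclear genes and 0.778% of all genes. Summed, the 7 held 19978 to 23144 CPM in PWS-IC deleted and 27763 to 35385 CPM in PWS-IC WT, and 40475 to 52027 CPM in Prepl knockout and 36753 to 41158 CPM in Prepl WT libraries. With mitochondrial genes taken out of the total, the 45 nuclear genes held 0.63% of reads in PWS-IC deleted and 0.643% in PWS-IC WT, and 0.557% in Prepl knockout and 0.554% in Prepl WT libraries.

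Genes around the complex were also read. Of 10 tested assembly factors with other names none was called in either mutant (medians 0.03 in Prepl knockouts and 0.01 in PWS-IC deleted brains). Among WT, Tmem70 (0.45), which helps to assemble ATP synthase and complex I, was higher in the PWS-IC set, and Timmdc1 (-0.67), Bcs1l (-0.52) and Ecsit (-0.43) were lower (log2). That is 1 higher and 3 lower of the 10, against 12.3% and 12.1% of all genes. Of 8 regulators of mitochondrial biogenesis none was called in either mutant. Ppargc1a, a coactivator of that programme, had a log2 fold change of -0.27 ± 0.102 (SE) in Prepl knockouts with an edgeR adjusted p of 0.395. In PWS-IC WT against Prepl WT 2 of the 8 regulators were lower, against 12.1% of all genes, and none was higher. They were Ppargc1a (-0.42 ± 0.102) and Ppargc1b (-0.73 ± 0.207, log2 with SE). The row 1810043H04Rik, an older symbol of the assembly factor Ndufaf8 and so outside the 45, had log2 fold changes of 0.03 ± 0.105 in Prepl knockouts and 0.02 ± 0.139 in PWS-IC deleted brains, with neither called.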

How the data were processed

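Brain RNA of 16 libraries in 4 groups was read from 1 count table each. Per the labels' protocols these were Lexogen QuantSeq 3′ poly(A) libraries, and the deposited values are whole-number read counts per gene symbol. The submitters' processing notes name mm10, HISAT2 and HTSeq, while versions, annotation and strand setting were not given in the sources used here. The 5 totals lines of each table stayed out of library sizes and tests. The smallest chi-square per degree of freedom between replicates was 2.43, so each counted as a sample of its own.

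CPM was computed over reads in genes. Tests used edgeR 4.0.16 in R 4.3.3 on the counts: filterByExpr (minimum count 10, minimum total 15), TMM, a quasi-likelihood F-test and a threshold of 0.05 on p adjusted by Benjamini-Hochberg across every gene tested. Each mutant was fitted with its own WT (8 libraries). The difference between effects and the comparisons between sets used all 16. SE is the absolute log2 fold change over the square root of F. The script was tested on simulated counts with 200 changed genes. Of genes changed by log2 0.4 it recovered 44% with the Prepl libraries and 29% with the PWS-IC libraries. At log2 1 these shares were 96% and 89%. A gene not called may thus have changed by about 0.4. DESeq2 1.42.0, limma 3.58.1 voom, other factors and filters, a sex term, a replicate block, the outside-gene read share as a covariate and leaving out each library were alternatives. The mutants between sets, removal of mitochondrial genes and male libraries alone were added after seeing the data. The complex I genes, the lists and the tests were chosen with earlier results of these data known.

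Fold changes are named for called genes, the 6 smallest p in each mutant comparison, the 7 core subunits and the 3 most abundant genes; the other lists' genes named were chosen after their values were seen. Coordinates are from GENCODE M21 (GRCm38), promoters from RefSeq (GRCm38.p6). Matches to other genes' transcripts were sought with blastn 2.17.0 in the last 300 bases (at least 95% identity over 100 bases). Of the 45 genes 6 had one. For Ndufb2 and Ndufb6 the matching gene is the overlapping opposite-strand gene, not a copy elsewhere. In the annotation 18 of the 45 overlap a gene on the opposite strand. The single values of 1 gene are not reported here, although it stayed in the fits, counts and sums.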

Additional observations from a re-analysis of the deposited data

Results flagged for a closer look

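Within a group of 4 libraries, a single library stood apart from the other 3 in 10 of 180 sets of gene and group (the gap to the nearest library exceeded 0.829 of the group's range), and chance gives about 1 in 20 sets. In Prepl knockouts, replicate 4 had 28.8 CPM of Ndufa12, against 71.1 to 77.3 CPM in the other 3. Replicate 3 of that group had 18.5 CPM of Ndufaf7 (others 17.1 to 17.3 CPM) and 67.1 CPM of Ndufs1 (others 77.4 to 79.4 CPM). In Prepl WT, replicate 1 had 88.2 CPM of Ndufa8 (others 116 to 119 CPM) and 53.3 CPM of Ndufa9 (others 68.2 to 71.2 CPM). In PWS-IC deleted libraries, replicate 2 had 116 CPM of Ndufb11 (others 91.7 to 94.4 CPM) and 288 CPM of Ndufb8 (others 237 to 244 CPM), and replicate 4 had 18.8 CPM of Ndufaf7 (others 14.2 to 14.8 CPM). In PWS-IC WT, replicate 3 had 123 CPM of Ndufa12, against 127 CPM in each of the others, and replicate 2 had 20.8 CPM of Ndufs3 (others 29.4 to 30.4 CPM).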

How the results depend on the processing

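Of the 45 genes, 1 (Ndufa5) was called in Prepl knockouts with DESeq2, without a filter on low counts and with the outside-gene read share as a covariate, against 0; leaving out 1 library gave 0 to 1, with Ndufa5 called without replicate 4 of the Prepl WT. The median of the 45 there was -0.07 with a sex term and -0.03 to 0.02 without 1 library. In PWS-IC deleted brains the count of 2 became 3 with DESeq2 (Ndufaf3 added), 5 without the filter, 6 with a sex term (Ndufa10, Ndufaf2, Ndufaf3 and Ndufs5 added), 5 in a fit of all 16 libraries, 1 in male libraries alone (Ndufa5), 0 with the covariate, and 2 to 5 without 1 library (5 without replicate 4 of the deleted libraries: Ndufa5, Ndufb10, Ndufaf2, Ndufaf3 and Ndufs5). The median there was 0.21 with the covariate and -0.06 to 0.04 without 1 library. Over all genes the PWS-IC count of 616 became 1119 with a sex term and 4 with the covariate, and the Prepl count of 36 became 156 without the filter. For the difference of effects a sex term gave 2 (Ndufaf2 and Ndufb10), and leaving out 1 library gave 0 to 0. Among WT the covariate gave 2 of 45 against 18, and 378 of all genes against 3516, and leaving out 1 library gave 15 to 19. Removing mitochondrial genes from the denominator gave summed shares of 0.63%, 0.643%, 0.557% and 0.554% in PWS-IC deleted, PWS-IC WT, Prepl knockout and Prepl WT. Signs turned for small values: with a sex term in Prepl knockouts Ndufs3 0.14 and Ndufb5 -0.01; with the covariate in Prepl knockouts Ndufs8 0.04 and Ndufv2 0.04, in PWS-IC deleted brains Ndufs7 0.21, Ndufs8 0.68 and Ndufv1 0.18, and among WT Ndufa1 -0.08. Without 1 library, Prepl values ran -0.06 to 0.06 for Ndufs3, -0.01 to 0.10 for Ndufv1, -0.16 to 0.02 for Ndufs8, -0.11 to 0.02 for Ndufv2 and -0.03 to 0.04 for Ndufs1. The causes were not tested. Same-numbered replicates correlated at -0.07 to 0.05 in the Prepl set and -0.03 to 0.19 in the PWS-IC set. In the PWS-IC set, same-numbered libraries were also of the same sex. The labels state no pairing, so whether the numbers pair the PWS-IC libraries is not settled. A replicate block gave 0 genes in Prepl knockouts, 0 for the difference and 18 among WT. In PWS-IC deleted brains it gave 5 (Ndufa5, Ndufb10, Ndufaf2, Ndufaf3 and Ndufs5), with 989 of all genes. Genes with few reads, such as Ndufa4l2 and Ndufaf1, are limited by depth.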
